A study of Mus musculus with 2 samples.

Results

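The 9 genes described here are immediate early genes of 3 families: the zinc finger transcription factor genes Egr1, Egr2 and Egr3, the orphan nuclear receptor genes Nr4a1, Nr4a2 and Nr4a3, and the immediate early response genes Ier2, Ier3 and Ier5. They were picked by symbol and are 9 of the 46095 genes in the count table. RNA was sequenced from mouse acute myeloid leukaemia cells, termed leukaemia-initiating cells by the labels, which had been taken from bone marrow by sorting for Mac1, the product of Itgam, together with c-Kit, the product of Kit. There were 2 libraries, 1 with the genotype P2x7-KO and the title ending KD, and 1 with the genotype wild type and the title ending Scr, both from C57BL/6 mice aged 8 weeks. The sources used here do not say how the leukaemia was made, how many mice gave each library, or how the P2x7-KO genotype was made (P2x7 is an ATP-gated cation channel).

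Immediate early genes are switched on within minutes of a signal, without new protein synthesis, because the factors that drive them are already present in the cell. The ERK kinase cascade acts through serum response factor and its partners on CArG boxes, and cyclic AMP and calcium signals act through CREB, and the resulting mRNAs are short-lived. EGR proteins and NR4A receptors then act as transcription factors themselves. In mice, Egr1 is known for restraining the cycling and exit of blood stem cells, and combined loss of Nr4a1 and Nr4a3 is known to cause acute myeloid leukaemia.

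The library labelled P2x7-KO held 12435916 counts and the library labelled wild type 12456212. Levels are CPM, counts relative to the scaled library total, scaled with TMM, a method that corrects totals for differences in composition. A ratio is the CPM in the library labelled P2x7-KO over that in the library labelled wild type, and its 95% interval is an exact counting interval. With 1 library in each group no test between genotypes was possible, so the intervals cover counting error only and not differences between mice, sorts or preparations. P2rx7, which encodes the targeted channel, was higher in the library labelled P2x7-KO, at 543 counts against 229. Its ratio was 2.27 (1.94 to 2.66), opposite to a loss of its RNA, so the libraries are named by their labels. After subtraction of the trend with transcript length and GC content described below, its log2 ratio was 0.85 (0.62 to 1.08). Whether the labels were exchanged, or the P2x7-KO allele still gives P2rx7 reads, was not tested. An exchange would turn round the direction of each ratio given here. Both sort genes were detected, Kit at 67.6 CPM in the library labelled P2x7-KO against 46.0 CPM and Itgam at 542.6 against 186.9 CPM. Among the 13363 genes with at least 20 counts, 8.95% were at least 2-fold lower and 10.8% higher, with intervals excluding equality. The marker lists were chosen with earlier results of these data known, so nothing is read from the marker counts below against these shares. Of 12 monocyte and macrophage markers, 8 were at least 2-fold higher and 0 lower. In the library labelled P2x7-KO their summed level was 5570 CPM against 2640 CPM in the library labelled wild type. Mast cell and basophil markers went the other way, with 2 of 5 counted lower and a summed level of 111.5 against 520.9 CPM, and Fcer1a at 0 counts in both libraries. Of 9 primary granule and progenitor markers 0 were past 2-fold in either direction. Neutrophil markers summed to 3038 against 3479 CPM (2 of 10 lower, 1 higher), dendritic cell markers to 920.7 against 830.3 CPM (2 of 5 higher) and erythroid markers to 94.5 against 76.5 CPM (2 of 3 higher). B lineage markers summed to 99.3 against 131.8 CPM (1 of 4 lower, 2 higher), T and natural killer markers to 13.7 against 35.7 CPM (2 of 3 lower, 1 higher) and megakaryocyte markers to 16.7 against 41.4 CPM (1 of 2 lower, 1 higher). The natural killer marker Ncr1 and the megakaryocyte genes Pf4 and Ppbp were at 0 counts in both libraries. The part of these markers in the results below was not tested, and in such bulk libraries fewer cells of a type and less RNA per cell cannot be told apart.

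Start regions of 6 of the 9 genes were in the RefSeq promoter table (GRCm38.p6, the assembly that mm10 names). Promoters of Egr1, Egr3 and Ier2 were not used here. The 250 bases before the start are shown for genes that differ in how far apart the libraries were. Among them are Nr4a1, whose ratio lay nearest to 1 among the well counted genes, and the scarcely detected Egr2. The others are Nr4a2, Ier3 and Ier5, each with a ratio under 0.5 (0.422, 0.254 and 0.440). Capitals mark the CArG box, the CREB-type core TGACG and the EGR-type site GCGNGGGCG on either strand, so that TGACG on the opposite strand reads CGTCA.
Nr4a1 (chr15:101266596-101266845, plus strand): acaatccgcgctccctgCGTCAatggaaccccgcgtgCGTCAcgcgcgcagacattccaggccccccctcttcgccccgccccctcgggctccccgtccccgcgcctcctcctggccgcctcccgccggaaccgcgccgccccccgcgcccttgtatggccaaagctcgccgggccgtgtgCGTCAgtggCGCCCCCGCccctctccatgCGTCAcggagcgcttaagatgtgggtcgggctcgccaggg
Nr4a2 (chr2:57124004-57124253, minus strand): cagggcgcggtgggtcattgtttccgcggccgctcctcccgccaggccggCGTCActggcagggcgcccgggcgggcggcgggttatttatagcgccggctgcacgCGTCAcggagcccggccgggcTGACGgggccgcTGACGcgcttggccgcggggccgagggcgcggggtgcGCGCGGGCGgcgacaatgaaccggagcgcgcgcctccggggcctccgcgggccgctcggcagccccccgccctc
Egr2 (chr10:67537619-67537868, plus strand): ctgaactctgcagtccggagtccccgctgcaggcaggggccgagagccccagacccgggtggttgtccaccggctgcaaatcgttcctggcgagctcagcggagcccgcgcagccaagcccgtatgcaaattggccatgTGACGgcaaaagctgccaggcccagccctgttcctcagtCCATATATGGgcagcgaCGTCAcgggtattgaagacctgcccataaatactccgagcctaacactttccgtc
Ier3 (chr17:35821463-35821712, plus strand): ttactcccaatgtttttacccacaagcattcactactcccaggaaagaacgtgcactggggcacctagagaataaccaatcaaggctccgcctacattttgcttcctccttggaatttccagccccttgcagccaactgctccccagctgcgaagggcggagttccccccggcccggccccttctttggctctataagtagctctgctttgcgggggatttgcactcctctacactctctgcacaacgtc
Ier5 (chr1:155099637-155099886, minus strand): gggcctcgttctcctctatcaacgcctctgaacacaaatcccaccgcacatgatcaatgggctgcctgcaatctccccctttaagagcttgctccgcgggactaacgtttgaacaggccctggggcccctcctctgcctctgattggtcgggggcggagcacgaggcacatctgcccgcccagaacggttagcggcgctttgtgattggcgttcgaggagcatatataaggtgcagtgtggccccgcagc

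Nr4a1, Nr4a2 and Nr4a3 each held 4 copies of TGACG in this window, a count reached by 0.137% of the 32851 windows of the table, while 17.8% held at least 1. The full palindrome TGACGTCA, in 1.55% of windows, was not among them. Nr4a1 and Nr4a2 also each held 1 GCGNGGGCG, found in 4.70% of windows, and in both it overlapped a GGGCGG motif. The Egr2 window held a CArG box starting 72 bases before the start, found in 1.47% of windows, with a TGACG on either side of it. RefSeq gives 5 such windows for Egr2, and 4 of them held a CArG box, but 3 of these overlap and hold the same box, so there were 2 distinct boxes. In the Ier3 and Ier5 windows none of the 3 marked motifs was present, nor were the NR4A-type site AAAGGTCA (1.34% of windows) or the AP-1-type site TGACTCA (4.46%). Both held GGGCGG, as did 32.7% of windows, Ier3 with 1 copy and Ier5 with 2. A match is a string in this window, and sites farther away were not searched.

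The EGR and IER genes had few exons, a feature that the choice of symbols did not use, with 1 to 3 in their representative transcripts, Ier2 and Ier5 lying in 1 exon, while Nr4a1 had 7 and Nr4a2 and Nr4a3 had 8. The median was 2 exons, against 9 over 11180 counted protein-coding genes, while the median transcript was of like length, 3036 bases against 2997. The pentamer ATTTA, the core of AU-rich elements that shorten mRNA life, occurred at least 2 times in the 3′ untranslated region of 8 of the 9 genes and of 47.7% of those counted genes. It was densest in Ier3, with 5 copies in 613 bases, and absent from the 755 bases of Ier2.

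Among the EGR genes, Egr1 carried nearly all counts. Egr1 (chromosome 18, 34859823 to 34864984, plus strand, mm10, GENCODE M21) had 305 counts in the library labelled P2x7-KO and 1804 in the library labelled wild type. These were 23.95 CPM (21.3 to 26.8) against 148.3 CPM (141.5 to 155.3). The level was 6.19-fold lower (5.48 to 7.01), which put Egr1 at place 37 from the lowest ratio among 10651 genes with at least 100 counts. Egr2 (chromosome 10, 67535475 to 67542188, plus strand), which acts in macrophage and T cell differentiation, had 11 counts against 14. Egr3 (chromosome 14, 70077203 to 70082614, plus strand), a relative studied in lymphocytes, had 9 counts against 12. Their ratios of 0.751 (0.308 to 1.78) and 0.716 (0.267 to 1.85) had intervals that spanned equality, and a ratio as low as that of Egr1 lay outside both, while a 2-fold lower level lay inside both and was not detectable at this depth.

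The NR4A genes behaved unevenly. Nr4a1 (chromosome 15, 101254269 to 101274795, plus strand), which encodes NUR77, had 491 counts in the library labelled P2x7-KO and 589 in the library labelled wild type, or 38.6 CPM (35.2 to 42.1) against 48.4 CPM (44.6 to 52.5). It was 1.26-fold lower (1.11 to 1.42), not past 2-fold. Nr4a2 (chromosome 2, 57106830 to 57124003, minus strand), which encodes NURR1, had 42 counts against 95, or 3.30 CPM (2.38 to 4.46) against 7.81 CPM (6.32 to 9.55). Its level was 2.37-fold lower (1.63 to 3.49), an interval that reached across the 2-fold line. The RefSeq gene LOC105244150 overlaps the start of Nr4a2 and had 29 counts against 58, so how reads were shared between the pair is uncertain. Nr4a3 (chromosome 4, 48045153 to 48086447, plus strand), which encodes NOR1, had 2 counts against 1, both below the limit of 3 counts that was set for detection (0.236 and 0.247 CPM), and no ratio is given.

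The 3 IER genes all had lower levels in the library labelled P2x7-KO. Ier2 (chromosome 8, 84661331 to 84662852, minus strand), which encodes a small nuclear protein, was the most counted of the 9, with 2667 counts against 5193. Its 209.4 CPM (201.6 to 217.5) against 426.9 CPM (415.4 to 438.7) made it 2.04-fold lower (1.94 to 2.14), so the interval reached across the 2-fold line. Ier3 (chromosome 17, 35821684 to 35822923, plus strand), a regulator of cell death and ERK signalling also called IEX-1, had 125 counts against 471. At 9.82 CPM (8.17 to 11.7) against 38.7 CPM (35.3 to 42.4) it was 3.94-fold lower (3.23 to 4.84). Ier5 (chromosome 1, 155096361 to 155099636, minus strand), whose protein binds the phosphatase PP2A and the heat shock factor HSF1, had 411 counts against 892. At 32.3 CPM (29.2 to 35.6) against 73.3 CPM (68.6 to 78.3) it was 2.27-fold lower (2.02 to 2.56). No interval of these genes overlapped between the libraries. The share of all counted genes with such separate intervals is not given here, so nothing is read from this.

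**Figure D1:**
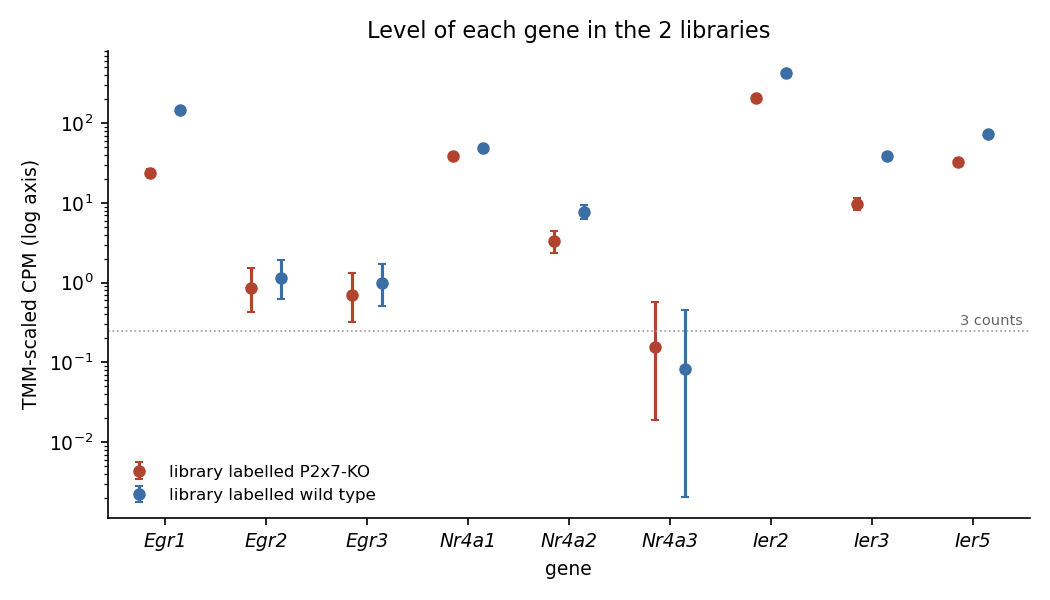
Level of each of the 9 genes in TMM-scaled CPM on a log axis, with exact 95% Poisson intervals, in the library labelled P2x7-KO (red, left of each pair) and the library labelled wild type (blue). Egr1 stands at 23.95 against 148.3 CPM and Nr4a1 at 38.6 against 48.4 CPM. Egr2 and Egr3 lie low but above the dotted line at 3 counts, and Nr4a3 lies under it.

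Of the 9 genes, 8 had the minimum of 20 counts over both libraries, and Nr4a3 did not. At least 2-fold lower, with an interval excluding equality, were 5 (Egr1, Nr4a2, Ier2, Ier3 and Ier5), 0 were at least 2-fold higher and 3 were neither. Among the 13363 genes with that minimum, 8.95% were lower and 10.8% higher by the same rule, 19.8% in either direction. The 9 genes were chosen with these values known, so nothing is read from the difference in shares. The median log2 ratio of the 8 was -1.11, beside 0.01 over the 13363 genes. Ier2 lay nearest to the 2-fold line: its log2 ratio of -1.03 was -0.96 when scaled to total counts, and 4 genes then remained past 2-fold. The interval of Nr4a2, 1.63-fold to 3.49-fold lower, also reached across that line.

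**Figure D2:**
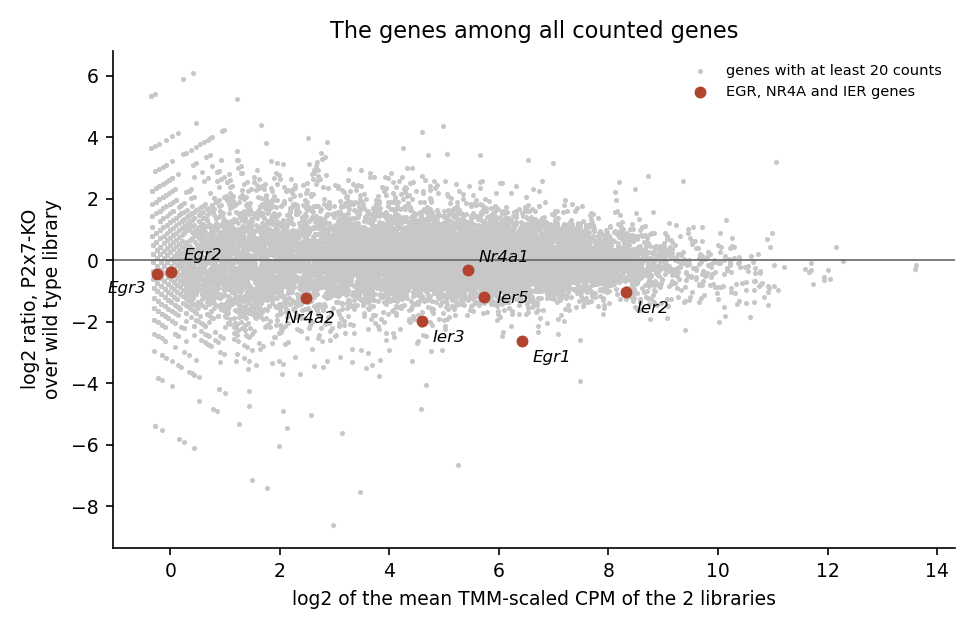
The log2 ratio of each of the 13363 genes with at least 20 counts (grey) against the log2 of the mean CPM of the libraries, with the 8 counted EGR, NR4A and IER genes in red. Egr1 and Ier3 lie near the lower edge of the cloud at their abundance, and Nr4a1, Egr2 and Egr3 lie nearer to 0.

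Short and GC-rich transcripts tended to have lower ratios across the whole table, a trend that bears unequally on these genes. At the length and GC content of Ier2 (1522 bases, 60.9% GC) the fitted trend was -0.57 on the log2 scale, and at those of Ier3 (1131 bases, 54.4% GC) it was -0.44. It was -0.03 for Egr1, 0.05 for Ier5 and 0.26 for Nr4a2. After subtraction the log2 ratio of Ier2 was -0.46 (-0.53 to -0.39), which is below equality but short of 2-fold. Ier3 was at -1.54 (-1.84 to -1.25), Egr1 at -2.60 (-2.78 to -2.42), Nr4a2 at -1.50 (-2.06 to -0.96) and Ier5 at -1.24 (-1.41 to -1.07), each still past 2-fold. Of these, the interval of Nr4a2 reached across the 2-fold line. Nr4a1 came to -0.07 (-0.25 to 0.11), an interval that includes equality. Whether this trend is technical or biological was not tested.

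**Figure D3:**
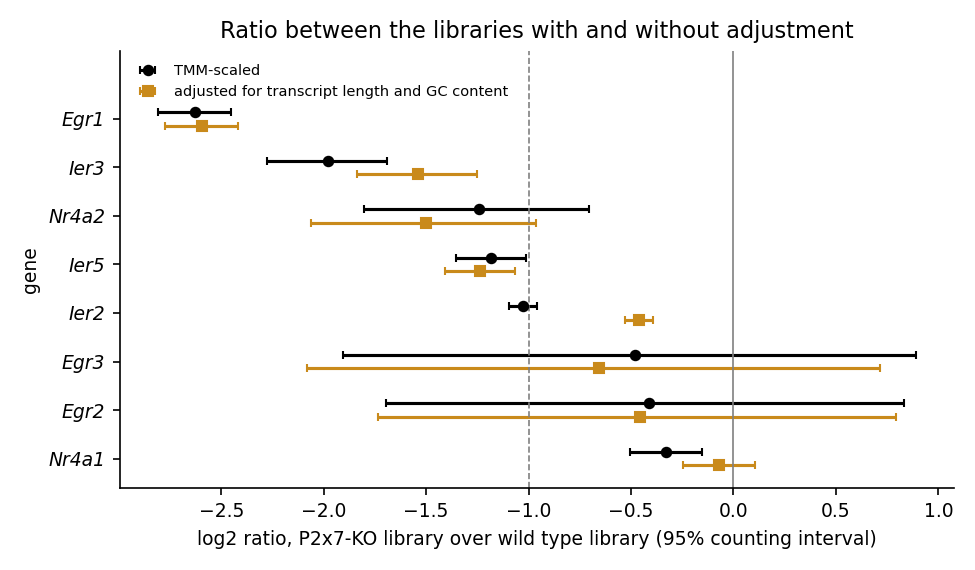
The log2 ratio of the 8 counted genes with 95% counting intervals, TMM-scaled (black circles) and after subtraction of the trend with transcript length and GC content (orange squares). The dashed line marks 2-fold lower. Ier2 moves from -1.03 to -0.46 and crosses that line, while Egr1 stays near -2.6.

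The make-up of the group differed between the libraries, which can be read without scaling. The 9 genes summed to 4063 counts, 0.0327% of the library labelled P2x7-KO (Clopper-Pearson 95% interval 0.0317 to 0.0337), and to 9071 counts, 0.0728% (0.0713 to 0.0743), of the library labelled wild type. Egr1 held 7.51% (6.72 to 8.36) of that sum in the library labelled P2x7-KO against 19.9% (19.1 to 20.7) in the other. Nr4a1 held 12.1% (11.1 to 13.1) against 6.49% (5.99 to 7.02). Ier2 held 65.6% (64.2 to 67.1) against 57.2% (56.2 to 58.3), the largest share in either library.

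**Figure D4:**
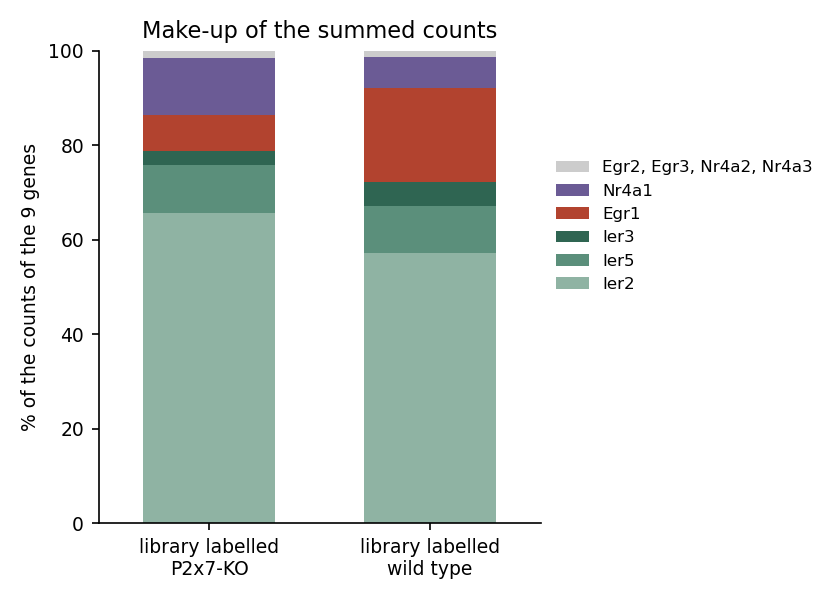
Share of the summed counts of the 9 genes taken by each, in the library labelled P2x7-KO (left bar, 4063 counts) and the library labelled wild type (right bar, 9071 counts). The red Egr1 segment takes 7.51% against 19.9%, and the purple Nr4a1 segment 12.1% against 6.49%.

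Ratios between pairs of the genes inside a library show how far they parted. There were 0.621 Egr1 counts for each Nr4a1 count in the library labelled P2x7-KO and 3.06 in the library labelled wild type, a 4.93-fold difference (exact conditional 95% interval 4.14 to 5.87). Egr1 per Ier2 was 0.114 against 0.347, 3.04-fold lower (2.66 to 3.47), and Egr1 per Ier3 was 2.44 against 3.83, 1.57-fold lower (1.23 to 1.99). Within the NR4A genes, Nr4a2 per Nr4a1 was 0.0855 against 0.161, 1.88-fold lower (1.27 to 2.83). Within the IER genes, Ier3 per Ier2 was 0.0469 against 0.0907, 1.94-fold lower (1.58 to 2.39). Ier5 per Ier2 was 0.154 against 0.172, a change of 0.897 (0.789 to 1.02) whose interval includes equality. The length and GC trend moves these pairs, by a subtraction chosen after seeing the data. With it Nr4a2 per Nr4a1 was 2.69-fold lower (1.82 to 4.05), Egr1 per Ier3 2.08-fold (1.63 to 2.63) and Egr1 per Ier2 4.40-fold lower (3.86 to 5.03). Ier5 per Ier2 was then 1.71-fold lower (1.51 to 1.95), an interval that excludes equality.

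Levels per length are given as TPM, the count over transcript length rescaled to a common sum. TPM was not scaled with TMM, so it serves to order genes within a library and not for ratios between libraries. On this scale Ier2, Ier5 and Nr4a2 (2.22 against 4.06 TPM) were less than 2-fold apart, and Nr4a1 was slightly higher in the library labelled P2x7-KO. Ier2 had the highest level of the 9 genes in both libraries. In the library labelled P2x7-KO it stood at 331.1 TPM, followed by Nr4a1 at 37.5 (34.2 to 40.9), Ier5 at 23.7 (21.5 to 26.1), Ier3 at 20.9 (17.4 to 24.9) and Egr1 at 18.98 TPM (16.9 to 21.2). In that order the intervals of Ier3 overlapped those of both Ier5 and Egr1. In the library labelled wild type Ier2 stood at 520.8 TPM, followed by Egr1 at 90.7 (86.6 to 94.98), Ier3 at 63.6 (57.95 to 69.6), Ier5 at 41.6 (38.9 to 44.4) and Nr4a1 at 36.3 TPM (33.4 to 39.3). There the intervals of Ier5 and Nr4a1 overlapped. Egr1 thus stood at place 5 in the library labelled P2x7-KO and place 2 in the library labelled wild type, and Nr4a1 at places 2 and 5. Places 6 to 9 were Nr4a2, Egr2, Egr3 and Nr4a3 in both libraries. The intervals of Egr2 and Egr3 overlapped in both, those of Egr3 and Nr4a3 overlapped in the library labelled P2x7-KO, and with Nr4a3 under 3 counts its place is not set. Egr1 exceeded 55.6% of the detected genes with a length in the library labelled P2x7-KO and 88.1% in the library labelled wild type.

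Other members of the same families were scarce or moved in the same direction. Ier5l, a relative of Ier5 in a single exon on chromosome 2, had 187 counts against 586, or 14.7 CPM against 48.2 CPM, and was 3.28-fold lower (2.78 to 3.89). There were 0.455 Ier5l counts per Ier5 count against 0.657, 1.44-fold lower (1.17 to 1.78), but after subtraction of the length and GC trend the fold was 0.939 (0.764 to 1.16), which includes equality. Egr4 had 0 counts in the library labelled P2x7-KO against 7 and was below the minimum, so no fold is given.

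Among the partners and upstream factors of the 9 genes, listed with earlier results of these data known, 7 of 43 counted genes (16.3%) were past 2-fold, near the 19.8% of all counted genes. The EGR corepressor genes Nab1 and Nab2 stood at 73.98 against 39.3 CPM, a ratio of 1.88 (1.68 to 2.11), and at 5.73 against 5.18 CPM, a ratio of 1.11 (0.779 to 1.58). The NR4A partner genes Rxra and Rxrb had ratios of 1.78 (1.49 to 2.12) and 0.540 (0.251 to 1.11), and Rxrg was at 0 counts in both libraries. Hsf1, whose product IER5 binds, stood at 59.4 against 96.1 CPM, 1.62-fold lower (1.48 to 1.78). Of 6 IER relatives and partners listed, Ier5l was lower and 5 were within 2-fold, among them the PP2A subunit genes Ppp2ca at a ratio of 1.03 (0.978 to 1.08) and Ppp2r5c at 1.29 (1.22 to 1.36).

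Among the genes that drive immediate early transcription, Srf, which encodes serum response factor, stood at 203.9 against 248.8 CPM, 1.22-fold lower (1.16 to 1.29). Of 6 genes of that factor and its partners 2 were at least 2-fold higher and 0 lower. These 2 were the ternary complex factor gene Elk4 at a ratio of 3.15 (2.63 to 3.79) and the coactivator gene Mkl2 at 2.06 (1.77 to 2.41). Elk3 was at 0.902 (0.814 to 0.999). Over all counted genes 10.8% were higher and 8.95% lower, and nothing is read from the shares of these lists. After subtraction of the length and GC trend Elk4 alone of the 6 was past 2-fold. Of 8 CREB family and coactivator genes 2 were higher, Ep300 at 2.19 (2.06 to 2.33) and Atf1 at 2.004 (1.82 to 2.21), and 0 were lower, with Crtc1 at 0.721 (0.639 to 0.813) and Crem at 0.600 (0.336 to 1.05). After subtraction of the length and GC trend 0 of these 8 were higher and 1, Crem, was at a log2 ratio of -1.04 (-1.88 to -0.23). Of 12 ERK cascade genes 1 was higher, the kinase gene Braf at 2.35 (2.10 to 2.62), and after that subtraction 0 were. Rps6ka3 was at 1.87 (1.67 to 2.09), Map2k2 at 0.583 (0.547 to 0.620) and Mapk3 at 0.767 (0.725 to 0.810). Of 7 counted feedback inhibitors of the cascade, 0 were higher and 1 was lower, the ERK phosphatase gene Dusp5 at 7.85 against 19.7 CPM (2.51-fold, 1.98 to 3.21). Dusp6 was at 0.751 (0.676 to 0.833), Dusp7 at 1.57 (1.42 to 1.73) and Spred1 at 1.24 (1.05 to 1.46).

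Set among other immediate early genes, the 8 counted genes were spread along the order of ratios. Beside them stood 40 other counted immediate early genes with a median log2 ratio of -0.89, of which 19 were past 2-fold on the lower side and 3 on the higher side. Over all 13363 counted genes the median was 0.01, and 8.95% were lower and 10.8% higher by that rule. The list was written with earlier results of these data known, so nothing is read from the difference in shares. Egr1 came at place 4 from the lowest of the 48, after the signalling regulator gene Rgs1 (11.1-fold lower, 6.29 to 21.4), the kinase gene Plk2 (9.91-fold, 6.00 to 17.4) and the pseudokinase gene Trib1 (9.70-fold, 6.80 to 14.3). Next to it were Arc, Plk3, Dusp2, Fosb and Gadd45b, at 5.61-fold, 5.36-fold, 5.23-fold, 4.83-fold and 4.39-fold lower. Ier3 lay at place 12, between Jun at 3.98-fold and Gem at 3.48-fold lower, with Atf3 at 4.01-fold. Nr4a2 and Ier5 lay at places 17 and 19, in a run from Klf2 at 2.61-fold through Jund at 2.52-fold, Fos at 2.47-fold, Dusp1 at 2.33-fold and Junb at 2.27-fold. Ier2 came at place 24, directly after Zfp36, Sgk1 and Csrnp1. Zfp36 at 2.17-fold, Sgk1 at 2.15-fold and Csrnp1 at 2.13-fold lower had the ratios closest to the median of the 8, of 38 genes with at least 100 counts, but over 2 libraries such likeness is a single ratio. After subtraction of the length and GC trend 17 of the 40 were lower: 14 of the 19 remained, Klf2 (-0.84), Jund (-0.53), Dusp1 (-0.96), Junb (-0.59) and Csrnp1 (-0.90 on the log2 scale) did not, and Rgs2, Nfkbiz and Tnfaip3 passed. Egr3, Egr2 and Nr4a1 lay at places 35, 36 and 37. The 3 higher genes were Sik1, a kinase gene that responds to cyclic AMP, at 2.47-fold (2.27 to 2.68), the circadian gene Per1 at 2.36-fold (2.18 to 2.56) and Socs3, with 19 counts against 7, at 2.59-fold (1.04 to 7.30).

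**Figure D5:**
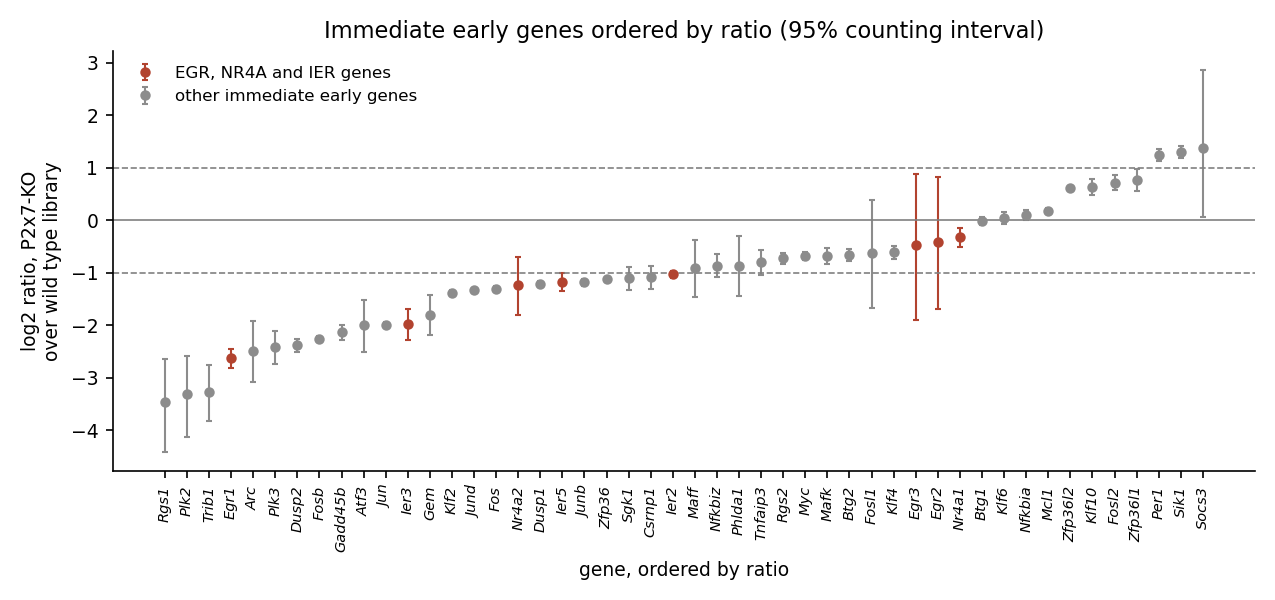
The log2 ratio of 48 immediate early genes with 95% counting intervals, ordered from the lowest, with the 8 counted EGR, NR4A and IER genes in red and 40 others in grey. The dashed lines mark 2-fold. Egr1 is at place 4, Ier3 at place 12, and Egr3, Egr2 and Nr4a1 at places 35 to 37, close to the line of equality.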

How the data were processed

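The authors deposited whole-number counts for each gene, not normalized. Per the submitters' processing notes, HISAT2 2.0.4 and mm10 were used. The sources used here do not name the counter, its annotation or its strand setting, which leaves overlapping genes uncertain. The 9 genes, the 10 pathway lists and the 9 marker lists were chosen with earlier results of these data known. The named genes are the 9, P2rx7, Kit and Itgam, the genes of each pathway list past 2-fold, the 2 furthest on each side of equality by the nearer bound of the interval, and the 3 other immediate early genes closest to the median of the 8 counted genes. A few genes of the lists named beyond these were chosen after their values were seen.

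Counts were scaled with TMM in edgeR 4.0.16 (R 4.3.3). Ratios have exact Clopper-Pearson intervals, CPM and TPM exact Poisson intervals, all at 95% and for counting error only. For medians 0.5 was added to each scaled count. TPM used, for 34509 of 46095 genes, the longest protein-coding GENCODE M21 transcript with a RefSeq record, or else the longest. Intervals, calls and the trend fit were checked on simulated data. The trend with log2 length and GC content was fitted with mgcv 1.9.3 over 12651 genes. Alternatives were total count, DESeq2 1.42.0 and upper quartile scaling, scaling without ribosomal protein, mitochondrial and non-mRNA genes, thinning to equal totals, other minimum counts (none, 100), other folds (1.5, 3), and adjustment for length in 20 bins or for length and GC content. Table columns of samples left out numbered 0.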

Additional observations from a re-analysis of the deposited data

How the results depend on the processing

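With 1 library per group there was no library to leave out. No paired analysis was possible because the groups hold 1 library each. Across the other scalings and thinning, Egr1, Nr4a2, Ier3 and Ier5 stayed at least 2-fold lower, and Ier2 did so only under upper quartile scaling and thinning. TPM was not among these scalings, and as TPM the libraries were less than 2-fold apart for Nr4a2, Ier5 and Ier2. Of 63 recomputed log2 ratios of the 9 genes, 57 lay inside the counting interval of the reported value and 6 outside it (Ier2 with total count scaling at -0.96 and with length adjustment at -0.79, Ier3 with length adjustment at -1.53, and Ier2, Ier3 and Nr4a1 after the length and GC adjustment). With that adjustment, added after seeing the data, Ier5l per Ier5 turned from 1.44-fold lower to a fold of 0.939. At a fold of 3, 2 of the 9 genes were lower. The median of the counted genes was -1.21 at a minimum of 100 counts and -0.93 after the length and GC adjustment. For the other immediate early genes these medians were -0.999 and -0.78, 11 were lower and 0 higher at a fold of 3, 7 were higher at a fold of 1.5, and 1 was higher after length adjustment. Over all genes 1196 were lower and 1447 higher as reported. There were 2521 and 2825 at a fold of 1.5, 447 and 557 at a fold of 3, and 712 and 939 after the length and GC adjustment. At a minimum of 100 counts 704 were lower, and after length adjustment 723. The fewer calls at a minimum of 100 follow from fewer genes; the cause of the others was not tested. Depth limits Egr2, Egr3 and Nr4a3, each under 30 counts in all.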

Other observations

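Genes that respond later than the immediate early genes, several of them known EGR or stress targets, also had members on the lower side. Of 8 counted, 3 had a ratio at least 2-fold below equality and 0 were higher, beside 8.95% lower and 10.8% higher among all counted genes. This list was written with earlier results of these data known, so nothing is read from the difference in shares. Cd69, an early activation marker of leukocytes, had 35.2 CPM in the library labelled P2x7-KO against 175.8 CPM in the library labelled wild type, a 4.996-fold lower level (4.51 to 5.54). The cell cycle inhibitor gene Cdkn1a had 28.1 against 71.4 CPM and was 2.54-fold lower (2.24 to 2.88). Id3, an inhibitor of E protein transcription factors, had 2 counts against 31, a ratio of 0.0616 (0.00715 to 0.242). Cd44, at a ratio of 1.55 (1.48 to 1.63), and Cblb, at 1.21 (1.07 to 1.37), lay above equality within 2-fold, and Tnf was at 0 counts in both libraries.

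Of 8 counted heat shock genes, all 8 lay below equality, beside 49.8% of all counted genes, and 2 were at least 2-fold lower, beside 8.95% of all, the chaperone genes Hspe1 at 55.1 against 143.6 CPM (2.61-fold, 2.39 to 2.85) and Dnajb1 at 90.5 against 193.8 CPM (2.14-fold, 1.99 to 2.30). The strongly inducible Hspa1a and Hspa1b fell under the minimum, Hspa1a with 1 count against 4 and Hspa1b with 2 against 3. The heat shock list was also written with earlier results of these data known, so nothing is read from its shares. Ratios of the heat shock genes and of the later genes above are given without subtraction of the length and GC trend.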
